A study of Mus musculus with 22 samples.

Results

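White adipose tissue (WAT) sampled 24 h after thyroid hormone (TH) was set against WAT sampled 6 h after it. The comparison rests on 8 libraries, 4 per time, of the 22 libraries of the series, chosen by their labels. It covers the 17928 genes with a mean normalised count above 10 among the 47643 rows of the WAT table. A normalised count is a read count divided by the effective size of its library and multiplied by the mean effective size of the 12 WAT libraries. The animals of all groups were wild-type C57BL/6J male mice of 8 weeks. A further group of 4 WAT libraries came from mice treated for 2 weeks with propylthiouracil (PTU), a drug that stops the thyroid gland from making hormone, and given no TH, and is called PTU here. The labels of the TH animals name the hormone and the time after it, and the study's description states that hypothyroid mice were used, so PTU is taken to precede TH in these groups too. The study describes the hormone as a single intraperitoneal injection of T3 and T4. No labelled group pairs a vehicle with either time, and neither the fat depot nor the time of day of sampling is given in the sources used here, so that time since hormone and time of day cannot be told apart.

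Thyroid hormone enters cells through transporters, is activated or inactivated by deiodinases, and binds nuclear receptors that form heterodimers with the retinoid X receptors on chromatin. In adipose tissue it is known for raising both the synthesis and the burning of fat and for inducing genes of heat production. Adipocytes also hold a circadian clock, in which the activators CLOCK (or its relative NPAS2) and BMAL1 (gene Arntl) drive the genes of their own repressors, among them the PER, CRY and REV-ERB proteins, so that the activator and repressor genes peak at opposite times of day.

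The libraries held 17.3 to 26.9 M counts, of which mitochondrial rows took 16.9% to 20.3%. Markers of white adipocytes were abundant in every library, with a summed level of 12 genes of 945900, 970590, 1126600 and 1120700 normalised counts at 6 h and 592370, 698080, 664450 and 706160 at 24 h (1040000 to 1403700 without TH), and the 24 h libraries all lay lower. In bulk tissue, fewer cells of a type, less RNA per cell and changes of single marker genes cannot be told apart by such a sum. Car3, described below, makes up a large part of it. The summed level of 16 keratinocyte genes (stratified epithelium) was 2623, 452, 6269 and 841 at 6 h, against 364 to 447 at 24 h and 521 to 1131 without TH, so that replicates 1 and 3 at 6 h stood apart. Skeletal muscle genes (15 genes) summed to 14652, 2207, 121680 and 5397 at 6 h, 222640, 360340, 50005 and 102550 at 24 h and 276090, 4809, 6249.6 and 676270 without TH, with overlapping groups. Genes of the epididymis, a tissue next to 1 of the fat depots, summed to at most 20.3 in any library and none of the 12 was tested. The strand setting of the counting is not stated, and 35 of the 119 genes named by rule overlap exons of a gene on the opposite strand and 7 those of one on the same strand, among them Dbp (Sphk2), Pfkp (Pitrm1), Acot11 (Fam151a), Sulf2 (Ncoa3) and Manf (Rbm15b), so part of their reads may be shared. The plot of marker sums shows the levels by library.

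**Figure D1:**
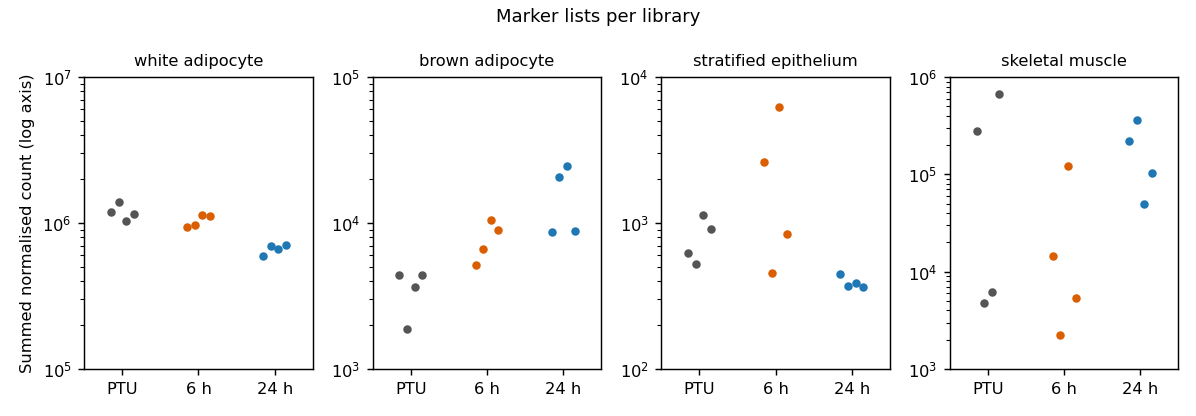
Summed normalised counts (log axis) of 4 marker lists in the PTU, 6 h and 24 h libraries, each point 1 library. White adipocyte sums are lower in all 4 libraries at 24 h than in all 4 at 6 h, epithelial sums are high in 6 h replicates 1 and 3 (2623 and 6269), and muscle sums spread over more than 2 powers of 10 across the libraries.

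Between 24 h and 6 h, 1329 genes (7.41% of those tested) passed the test (adjusted p under 0.05, edgeR's quasi-likelihood test with Benjamini-Hochberg adjustment, two-sided), 550 higher at 24 h (3.07%) and 779 lower (4.35%). Their median absolute log2 change was 0.66, and 340 changed by more than 1 on the log2 scale. The median log2 change of all genes tested was 0.01. The 8 libraries were fully separate, all 4 of one time above all 4 of the other, for 1290 of the 1329 genes, where the same held for 21.8% of all genes tested. The calls used these same libraries, so the separation largely follows from them and is no further support. Genes named as the largest changes of a class were also chosen for this separation, so for them it is a condition of naming. Against PTU, 1296 genes (7.23%) passed at 6 h and 3060 (17.1%) at 24 h. The number of calls between the times was 2038 without PTU replicate 1, 735, 661 or 820 without 6 h replicate 1, 2 or 4, and 764, 877, 787 or 737 without 24 h replicate 1, 2, 3 or 4. There were 180 calls without 6 h replicates 1 and 3, the libraries with the high epithelial sums. A fit that held the epithelial sum as a covariate called 140, of which 138 were among the 1329. That sum was itself higher in all 4 libraries at 6 h than in all 4 at 24 h. Holding it therefore also takes out part of the difference between the times, and this fit cannot tell the 2 apart, here or for the genes and lists below.

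The 1329 genes were sorted by their calls against PTU. Of these, 161 (12.1%) were transient, that is called at 6 h, changed back by 24 h and no longer called against PTU. Late genes, not called at 6 h and called at 24 h in the direction of the change between the times, numbered 676 (50.9%). The calls of 11 genes (0.828%) reversed, being on opposite sides of PTU at the 2 times. A further 74 (5.57%) were progressive, called at 6 h and moved further from PTU by 24 h, and 25 (1.88%) were partly returning, called at both times on the same side but closer to PTU at 24 h. The remaining 382 (28.7%) were called between the times and at neither time against PTU. The 3 contrasts share libraries, so a library at 6 h that stands apart moves a gene both in the contrast of 6 h with PTU and in that of 24 h with 6 h. Without 6 h replicates 1 and 3 the numbers were 24 transient, 129 late, 3 reversing, 7 progressive and 3 partly returning.

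**Figure D2:**
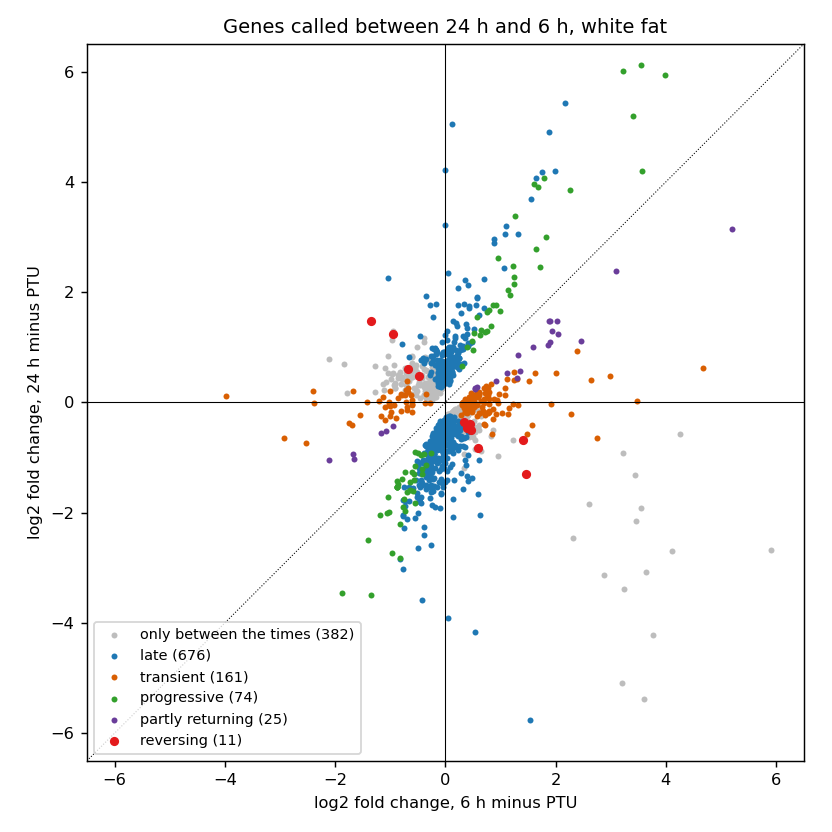
Log2 fold change at 6 h against PTU (horizontal) and at 24 h against PTU (vertical) of the genes called between 24 h and 6 h, coloured by class with the number of genes in brackets. The dotted diagonal marks equal change at both times, 2 genes lie outside the axes, late genes stand along the vertical axis and transient genes along the horizontal one.

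The largest transient changes were those of the circadian clock, apart from that of the clone 4833423E24Rik, whose sign turned with the epithelial sum held. In the activator phase 4 genes fell at 6 h and were back at 24 h, while 6 repressor and output genes rose at 6 h and were back at 24 h. Of 7 genes listed for the activator phase, 5 were higher and 1 lower at 24 h than at 6 h, with a median log2 difference of 1.09 (85.7% called against the 7.41% of all genes). This list holds the genes of the repressors NFIL3 and CRY1 as well as those of activators, and both are among the 5. Of 12 genes listed as repressors and output, 10 (83.3%) were lower and 0 higher, with a median of -2.37. These lists were chosen with results of these libraries known, so their direction is a description. Between 9 and 11 of the 12 were lower when 1 library was left out, 8 without 6 h replicates 1 and 3 and 8 with the epithelial sum held.

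Npas2 (chromosome 1, 39193731 to 39363236, GRCm38 as for all positions here), a partner of BMAL1, had 297, 233, 321 and 135 normalised counts without TH, 15.7, 16.9, 19.3 and 10.7 at 6 h and 246, 370.5, 285 and 170.4 at 24 h. Every 6 h library lay below every library of the other groups. The log2 difference between 24 h and 6 h was 4.10 ± 0.33 (SE, adjusted p 8.28e-05), after a change of -3.99 ± 0.33 at 6 h, and 24 h differed from PTU by 0.12 ± 0.27 (adjusted p 0.794). Arntl (chromosome 7, 113207465 to 113314126), which encodes BMAL1, had 666, 419, 485 and 287 without TH, 112, 90.9, 79.3 and 70.6 at 6 h and 547, 467, 593 and 528 at 24 h, again with the 6 h libraries apart from all others (24 h minus 6 h 2.60 ± 0.23, adjusted p 8.77e-05). Nfil3 (chromosome 13, 52967209 to 52981073), a repressor that binds D-box sequences, went from 314 ± 41.2 (SD, n = 4) to 60.2 ± 22.1 and 311 ± 56.7, a difference between the times of 2.38 ± 0.22 (adjusted p 0.000124). Clock itself moved less, with 995 to 1236 without TH, 609 to 659.7 at 6 h and 899 to 1072 at 24 h (24 h minus 6 h 0.65 ± 0.09, adjusted p 0.00139).

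The D-box activators moved the other way. Dbp (chromosome 7, 45705088 to 45710203) had 56.7, 107, 52.3 and 241 normalised counts without TH, 2285, 2548, 3417 and 3279 at 6 h and 199, 122, 173 and 196 at 24 h, and its 6 h libraries were above all others. Its log2 difference between 24 h and 6 h was -4.06 ± 0.41 (SE, adjusted p 0.000193), after a change of 4.68 ± 0.42 at 6 h. Tef, its relative, had 2531, 2867, 3251 and 3201 at 6 h and 568, 433, 491 and 633 at 24 h, against 478 to 842 without TH (24 h minus 6 h -2.48 ± 0.18, adjusted p 5.62e-05). Hlf, of the same family, had 457 to 654 at 6 h and 53.3 to 123 at 24 h (log2 difference -2.50 ± 0.26, adjusted p 0.000224). Among the repressors, Per3 had 1138, 1169, 1253 and 1529.9 at 6 h and 136, 99.9, 119 and 131 at 24 h (log2 difference -3.39 ± 0.28, adjusted p 8.28e-05). Per2 had 341, 467, 498 and 486 at 6 h and 83, 113, 116 and 68.6 at 24 h (-2.23 ± 0.20, adjusted p 0.000119). Ciart, a repressor of CLOCK and BMAL1, had 63.8, 117, 246 and 168 at 6 h and 9.65, 11.6, 14.9 and 17.7 at 24 h (-3.46 ± 0.43, adjusted p 0.00075), and all 3 were fully separate between the times. None of the 6 genes was called at 24 h against PTU. Ciart at 24 h (13.5 ± 3.55) was closest to its PTU level (13.5 ± 6.85), and Per3 farthest among these in the downward direction (-0.65 ± 0.27, adjusted p 0.119).

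Not every clock gene followed this course. The REV-ERB genes fell below PTU at 24 h. Nr1d1 (chromosome 11, 98767932 to 98775333) had 3289, 2657, 2868 and 2528 without TH, 4811, 3457, 4765 and 3985 at 6 h and 807, 781, 673 and 1313 at 24 h. Its libraries were separate between all 3 groups, but its change at 6 h did not pass (0.59 ± 0.19, adjusted p 0.0815), which made it late (24 h minus 6 h -2.25 ± 0.20, adjusted p 8.77e-05). Nr1d1 overlaps Thra on the opposite strand and the strand setting of the counting is not stated, so reads of the 2 genes may be shared. Its relative Nr1d2 reversed and is described with the reversing genes. Cry1 rose late, with 129 to 256 without TH, 131 to 162 at 6 h and 227 to 344 at 24 h (1.09 ± 0.21, adjusted p 0.00986). Cry2 fell late (-0.65 ± 0.15, adjusted p 0.0224), a call lost without 6 h replicate 3 or 24 h replicate 3 (adjusted p 0.0511 to 0.0558). Rora, an activator at the sites where REV-ERB proteins repress, fell late (-0.88 ± 0.19, adjusted p 0.0166). Bhlhe41, a repressor, was called between the times only (-1.92 ± 0.39, adjusted p 0.014). Per1 and Bhlhe40 did not pass between the times (-0.99 ± 0.35 and -1.03 ± 0.49, adjusted p 0.101 and 0.223), and the 24 h libraries of Per1 held 270.1, 986, 490.3 and 250.1. Apart from Cry2, each clock gene called here was called whichever 1 of the 12 libraries was omitted.

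**Figure D3:**
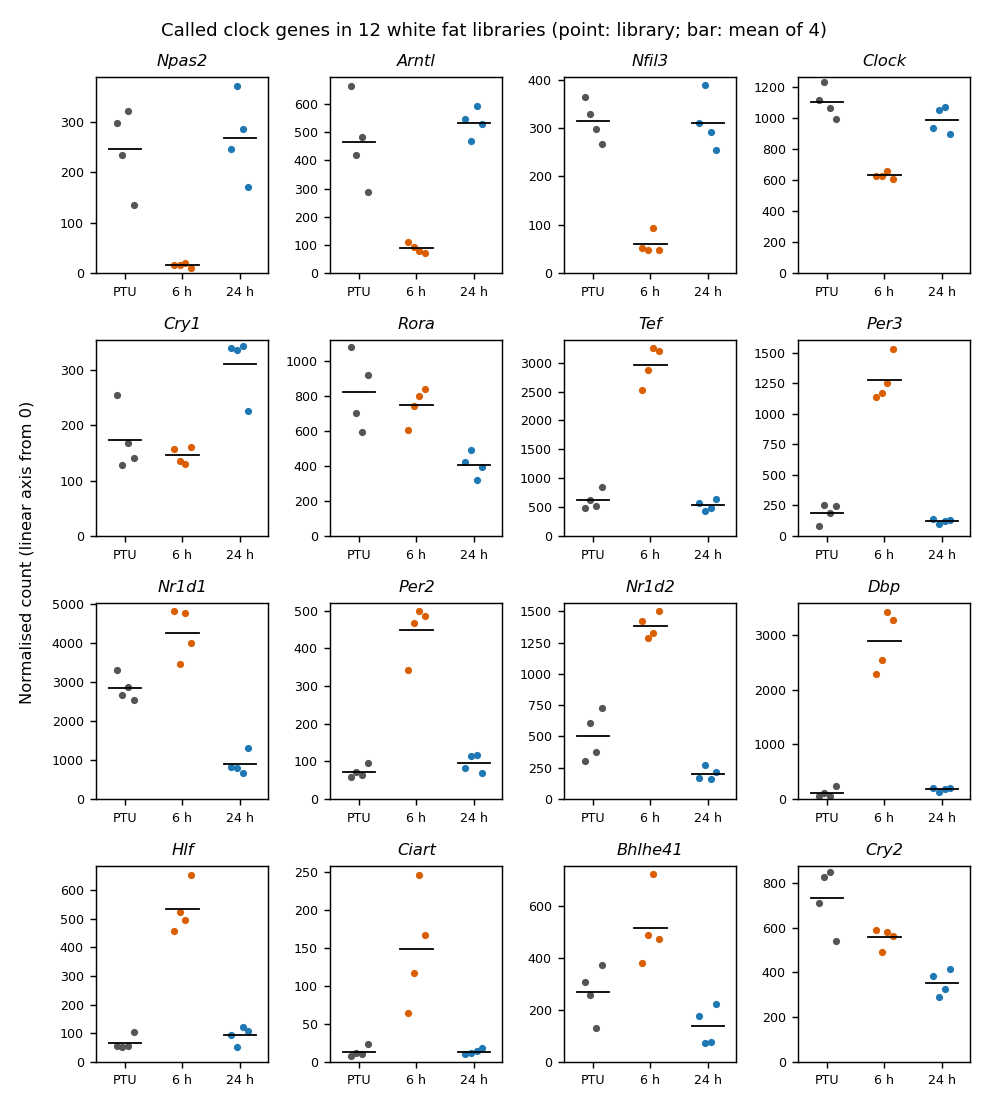
Normalised counts (linear axes from 0) of the 16 listed clock genes called between 24 h and 6 h in the PTU, 6 h and 24 h libraries, with each library as a point and the mean of 4 as a bar. The 6 h libraries of Npas2, Arntl, Nfil3 and Clock lie below, and those of Tef, Per3, Per2, Dbp, Hlf and Ciart above, all libraries of the other 2 groups.

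The promoters of the 3 most strongly called genes of each clock list are shown because these genes moved in opposite directions at the same times. Each runs from 250 bases before the start site to 50 bases from it, 5′ to 3′ on the gene's strand (RefSeq, GRCm38.p6). Where the table held several promoters of a gene, the one farthest upstream was taken. Capitals mark matches, on either strand, to the E-box CACGTG (bound by CLOCK and BMAL1), the D-box TTANGTAA (bound by DBP, TEF, HLF and NFIL3) or the core of the ROR element, TAGGTCA or TGGGTCA, which read TGACCTA or TGACCCA on the other strand (bound by ROR and REV-ERB proteins).
Npas2 (chr1:39194022-39194321, plus strand): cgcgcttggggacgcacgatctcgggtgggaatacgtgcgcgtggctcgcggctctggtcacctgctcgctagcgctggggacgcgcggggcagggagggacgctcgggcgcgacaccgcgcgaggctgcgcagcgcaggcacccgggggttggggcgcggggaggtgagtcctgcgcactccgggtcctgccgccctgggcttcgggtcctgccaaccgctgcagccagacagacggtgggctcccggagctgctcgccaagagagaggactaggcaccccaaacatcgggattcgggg
Arntl (chr7:113207215-113207514, plus strand): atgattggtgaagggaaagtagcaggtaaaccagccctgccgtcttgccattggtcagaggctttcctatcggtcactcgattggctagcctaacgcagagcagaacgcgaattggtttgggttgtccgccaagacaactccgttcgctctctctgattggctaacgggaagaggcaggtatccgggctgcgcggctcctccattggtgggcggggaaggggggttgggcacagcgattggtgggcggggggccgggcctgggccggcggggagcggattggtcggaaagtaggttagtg
Nfil3 (chr13:52980990-52981289, minus strand): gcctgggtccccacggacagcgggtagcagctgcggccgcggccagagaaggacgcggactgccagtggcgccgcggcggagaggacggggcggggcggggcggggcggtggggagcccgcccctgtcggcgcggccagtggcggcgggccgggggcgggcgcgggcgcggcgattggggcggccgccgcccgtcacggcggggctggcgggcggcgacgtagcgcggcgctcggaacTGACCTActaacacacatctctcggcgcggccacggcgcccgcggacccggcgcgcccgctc
Tef (chr15:81802423-81802722, plus strand): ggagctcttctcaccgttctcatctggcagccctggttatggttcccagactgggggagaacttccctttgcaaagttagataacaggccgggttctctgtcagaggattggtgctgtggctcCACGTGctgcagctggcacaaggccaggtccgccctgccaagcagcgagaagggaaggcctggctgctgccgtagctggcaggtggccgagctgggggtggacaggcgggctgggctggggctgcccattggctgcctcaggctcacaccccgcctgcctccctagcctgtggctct
Per3 (chr4:151044616-151044915, minus strand): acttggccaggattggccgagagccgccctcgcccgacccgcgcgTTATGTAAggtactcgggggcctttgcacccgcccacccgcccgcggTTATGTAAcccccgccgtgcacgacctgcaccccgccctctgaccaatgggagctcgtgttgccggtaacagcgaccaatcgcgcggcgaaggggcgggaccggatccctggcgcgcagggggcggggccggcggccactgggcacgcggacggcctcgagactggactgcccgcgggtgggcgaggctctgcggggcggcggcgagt
Nr1d1 (chr11:98775328-98775627, minus strand): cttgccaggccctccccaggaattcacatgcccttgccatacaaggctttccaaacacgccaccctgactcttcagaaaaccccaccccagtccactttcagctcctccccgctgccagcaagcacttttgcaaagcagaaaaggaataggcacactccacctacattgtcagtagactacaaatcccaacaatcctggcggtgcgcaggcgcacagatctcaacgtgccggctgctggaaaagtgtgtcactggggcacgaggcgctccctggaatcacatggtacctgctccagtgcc

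Nfil3 held 1 ROR element, Tef 1 E-box and Per3 2 D-boxes, while Npas2, Arntl and Nr1d1 held no exact match to these letters in this window. Variants of the letters were not searched. The Arntl window holds TAGGTTA near its end, which is 1 base from TAGGTCA and was not counted. Of the 10 repressor and output genes with a promoter in the table, 4 (Tef, Ciart, Bhlhe41 and Per1) held an E-box, 1 a D-box and 0 a ROR element. Of the 6 activator-phase genes, 1 (Cry1) held an E-box, 0 a D-box and 1 a ROR element. Among all 32851 promoters of the table, 7.15% held an E-box, 2.32% a D-box and 6.45% a ROR element. Ciart, whose level rose at 6 h and came back, held 3 E-boxes. A match in these letters is no evidence of binding in these tissues, and a missing match is no evidence that binding is absent.

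Beyond the clock, the 161 transient genes comprised 118 that were lower and 43 that were higher at 24 h than at 6 h, with median log2 changes of -0.58 and 0.93. Their differences from PTU at 24 h had a median absolute size of 0.13 with a median SE of 0.14, and ran from -0.73 to 0.92. For 144 of them the unadjusted p at 24 h was above 0.05. Of the 161, 79 were called whichever 1 of the 12 libraries was omitted, and 42 were also transient in all 12. Cryab, a small heat shock protein, had 736, 545, 1277 and 699 at 6 h and 2073, 3358, 1502 and 1852 at 24 h, against 1234 to 2928 without TH (1.43 ± 0.34, adjusted p 0.0238). The call was lost without 6 h replicate 1, 2 or 4 or 24 h replicate 2 (adjusted p 0.061 to 0.0683), and Cryab overlaps Hspb2 on the opposite strand. Oxtr, the oxytocin receptor, had 74.9, 61.9, 72.8 and 74.7 at 6 h and 199, 136, 276 and 126 at 24 h, against 123 to 302 without TH (1.37 ± 0.29, adjusted p 0.0169), and was lost without 6 h replicate 2 (adjusted p 0.0528). Of 17 adipocyte transcription factors 1 was higher at 24 h than at 6 h (Cebpb, progressive) and 2 were lower (Klf15 and Cebpa, transient), with a median of -0.20, and with the epithelial sum held 0 were called. The share called in the main fit was 17.6%, against the 7.41% of all genes. Klf15, a transcription factor of adipocytes, had 853, 1103, 687 and 887 without TH, 1665, 1194, 1495 and 1427 at 6 h and 552, 819, 669 and 605 at 24 h, with the 6 h libraries above all others (-1.13 ± 0.16, adjusted p 0.00189). Cebpa, which maintains the adipocyte state, differed by -0.54 ± 0.12 (adjusted p 0.0169), a call lost without 24 h replicate 1 or 4 (adjusted p 0.0519 to 0.0537). The insulin receptor gene Insr had 1933 to 2112 at 6 h and 1331 to 1572 at 24 h, against 1625 to 1803 without TH (-0.52 ± 0.08, adjusted p 0.00269). The glucocorticoid receptor Nr3c1 (-0.50 ± 0.11, adjusted p 0.0175) and Adora1, an adenosine receptor that restrains lipolysis (-0.85 ± 0.14, adjusted p 0.00495), were also transient. Of the 12 fits that left out 1 library, 10 classed Klf15 as transient, 4 Cebpa, 2 Insr, 9 Nr3c1 and 10 Adora1. With the epithelial sum held, the adjusted p of these 5 genes between the times was 0.0553 to 0.240. Insr is transient by its calls, although its 24 h libraries all lay below its PTU libraries. Pfkp, a phosphofructokinase of glycolysis, took the opposite course, with 1365 to 2286 without TH, 1145 to 1323 at 6 h and 1855 to 2507 at 24 h (0.86 ± 0.15, adjusted p 0.00578).

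Late changes formed the largest class, 258 genes higher and 418 lower at 24 h, with median log2 changes between the times of 0.64 and -0.67. At 6 h these genes differed from PTU by a median of 0.02 in the first group and -0.07 in the second, and for 231 and 341 of them the unadjusted p at 6 h was above 0.05. Of the 676, 297 were called between the times whichever 1 of the 12 libraries was omitted and 232 were late in all 12. Crtac1 (chromosome 19, 42283035 to 42431783), a secreted protein of cartilage, had 38.4, 146, 117 and 92.2 without TH, 82.8, 117, 115 and 91.2 at 6 h and 3.86, 6.79, 6.37 and 8.85 at 24 h. The 24 h libraries lay below all others (-3.96 ± 0.40, SE, adjusted p 0.000199). Pmepa1, an inhibitor of TGF-beta signalling, had 2529, 2068, 2700 and 2666 at 6 h and 459, 478, 518 and 548 at 24 h (-2.31 ± 0.30, adjusted p 0.00115). Col15a1, a collagen of basement membranes, had 5192, 3917, 3739 and 4429.5 and 1159, 839, 1161 and 1118 (-2.01 ± 0.22, adjusted p 0.000294), and Rasd1, a small G protein induced by glucocorticoids, 1631, 1267, 1796 and 1051 and 469, 191, 241 and 509 (-2.03 ± 0.34, adjusted p 0.00522). Rasd1 had 1331.5, 2861, 3201 and 2726 without TH, and its lower level at 6 h did not pass against PTU (-0.82 ± 0.33, adjusted p 0.145). In the rising direction, Cyp2b10, a cytochrome P450 of the drug response, had 8.95, 8.85, 13.9 and 26.3 at 6 h and 89.7, 236, 163 and 58.7 at 24 h (3.21 ± 0.48, adjusted p 0.00259), against 9.93 to 22.1 without TH. Cdkn1a, the cell cycle inhibitor p21, had 365, 424, 504 and 391 at 6 h and 1514, 2361, 1488 and 1209.6 at 24 h (1.96 ± 0.20, adjusted p 0.000193), with no overlap. Smox, spermine oxidase, rose by 1.86 ± 0.38 (adjusted p 0.0137). Tnfrsf12a, the receptor of TWEAK, had 72.3, 378, 78.5 and 57.5 at 24 h (2.04 ± 0.54, adjusted p 0.0408), and its call was lost without PTU replicate 2, any 1 of the 4 6 h libraries or 24 h replicate 2 (adjusted p 0.0509 to 0.106). Cox7a1, a subunit of cytochrome oxidase of muscle and brown fat, had 117 to 228 at 6 h and 445 to 768 at 24 h (1.85 ± 0.52, adjusted p 0.0498). Its call was lost without PTU replicate 1, any 1 of the 4 6 h libraries or any 1 of the 4 24 h libraries (adjusted p 0.0505 to 0.127). The muscle marker sum was 50005 to 360340 at 24 h and 2207 to 121680 at 6 h, and with that sum as a covariate the adjusted p of Cox7a1 was 0.258.

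Of 12 genes that mark white adipocytes, 6 (50%, against the 7.41% of all genes called) were lower and 0 higher at 24 h than at 6 h and the other 6 did not pass. The median log2 change was -0.70, all 6 were classed as late, and 6 to 7 were called when 1 library was left out. Without 6 h replicates 1 and 3 there were 3, and with the epithelial sum held 2. Of these genes Car3, Slc7a10 and Lpl lie outside the naming rule and were chosen after their values were seen. Car3, carbonic anhydrase 3, had 265160, 315920, 313330 and 345390 at 6 h and 114330, 116400, 118150 and 136480 at 24 h (-1.35 ± 0.14, adjusted p 0.000193). Slc7a10, an amino acid transporter, had 2363, 2811, 2841 and 2729 and 833, 942, 688 and 1148 (-1.57 ± 0.17, adjusted p 0.000273). Adipoq, the hormone adiponectin, had 55898, 59447, 66047 and 61359 and 32295, 35161, 33505 and 36565 (-0.82 ± 0.12, adjusted p 0.00268). In all 3 the times did not overlap. The lipid droplet proteins Plin1 (-0.89 ± 0.14, adjusted p 0.00301) and Cidec (-1.63 ± 0.34, adjusted p 0.015) and lipoprotein lipase, Lpl (-0.83 ± 0.14, adjusted p 0.00544), were the other 3. The caveola proteins Cav1 (-0.76 ± 0.13, adjusted p 0.00552) and Cav2 (-0.998 ± 0.15, adjusted p 0.00314) fell late as well, 2 of 10 caveola genes listed (median -0.18, 20% called against the 7.41% of all genes). Among 19 lipolysis genes 5 were lower and 0 higher (median -0.25, 26.3% called against the 7.41% of all genes). The 5 include Plin1 and Cidec, the Adora1 gene named above and Prkar2b, a regulatory subunit of protein kinase A (-1.07 ± 0.24, adjusted p 0.0199), whose call was lost without 6 h replicate 2 or 24 h replicate 4 (adjusted p 0.0509 to 0.0557). The fifth, Pde3b, a phosphodiesterase by which insulin restrains lipolysis, was chosen after its values were seen (-0.68 ± 0.16, adjusted p 0.0288) and was lost without 6 h replicate 2 or 3 or 24 h replicate 1 or 4 (adjusted p 0.069 to 0.0783). The number lower was 3 without 6 h replicate 2 and 3 without 24 h replicate 4, and it was 1 without 6 h replicates 1 and 3 and 0 with the epithelial sum held. The summed level of the white adipocyte markers moved with this group, and the share of adipocyte RNA in it was not tested.

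Lipid synthesis genes changed in both directions, and all 4 calls among 23 tested were late (3 higher, 1 lower, median 0.35, 17.4% called against the 7.41% of all genes). Agpat9, of triglyceride synthesis, is not in this list and is described with the progressive genes (-2.15 ± 0.18). Scd1, the desaturase that makes monounsaturated fatty acids, had 123560, 217130, 274030 and 184780 normalised counts without TH, 208590, 168790, 262710 and 336490 at 6 h and 604680, 577300, 705100 and 567560 at 24 h, the 24 h libraries above all others (1.33 ± 0.25, adjusted p 0.00912). The elongases Elovl6 (3532, 3043, 4047 and 5434 at 6 h and 13547, 6115, 12263 and 13411 at 24 h, 1.497 ± 0.26, adjusted p 0.00559) and Elovl5 (1.11 ± 0.18, adjusted p 0.00372) rose too. Without TH, Elovl6 had 5935, 7181, 7526 and 4871. Its mean at 6 h lay below the PTU mean, a difference that did not pass (-0.67 ± 0.25, adjusted p 0.126). Its excess over PTU at 24 h was therefore smaller than the change between the times (0.83 ± 0.25, adjusted p 0.0395). The value of 24 h replicate 2 lay within the PTU range. Dgat1, which adds the last acyl chain of a triglyceride, fell, with 3858, 3496, 4345 and 3648 at 6 h and 1429, 1419.8, 1919 and 1628 at 24 h (-1.26 ± 0.13, adjusted p 0.000193). Without 6 h replicates 1 and 3, or with the epithelial sum held, the 3 rises were not called and the fall of Dgat1 was. Without PTU replicate 1, 6 were higher and 2 lower, and 5 were higher without 24 h replicate 2. Elovl6 was called between the times whichever 1 of the 12 libraries was omitted but kept its late class in 4 of them. Pmvk (0.85 ± 0.19, adjusted p 0.0206) and Fdps (0.82 ± 0.21, adjusted p 0.0352), of cholesterol synthesis, were 2 of 23 higher and 0 lower in their list (median 0.10), that is 8.70% against the 7.41% of all genes. Pmvk was lost without 6 h replicate 1 or 24 h replicate 1 or 4 (adjusted p 0.0557 to 0.0587) and Fdps without 6 h replicate 1 or 2 or 24 h replicate 1, 3 or 4 (adjusted p 0.0643 to 0.091).

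In the citrate cycle and pyruvate dehydrogenase list 4 of 18 were higher and 0 lower (median 0.38, 22.2% called against the 7.41% of all genes). The 4 calls became 1 without 6 h replicates 1 and 3, 1 with the epithelial sum held and 2 with the muscle sum as a covariate. Suclg1, a subunit of succinyl-CoA ligase, had 2104, 2001, 2231 and 2387 at 6 h and 3752, 4255, 4879 and 3764 at 24 h (0.93 ± 0.11, adjusted p 0.000509). Pdhb (0.96 ± 0.19, adjusted p 0.0115), of pyruvate dehydrogenase, rose late, and Idh3a (0.54 ± 0.11, adjusted p 0.012), of isocitrate dehydrogenase, was progressive. The fourth, Dlat (0.62 ± 0.14, adjusted p 0.0241), was lost without 6 h replicate 1 or 2 or 24 h replicate 1 or 3 (adjusted p 0.0597 to 0.0739). Of 77 nuclear genes of the respiratory chain, 12 were higher and 0 lower, that is 15.6% called against the 7.41% of all genes. Of the 77 log2 differences, 75 were positive (median 0.30), but members of a list share the same libraries and are not independent. Against PTU the median of this list was -0.13 at 6 h and 0.19 at 24 h. Ndufs8, of complex I, rose by 0.58 ± 0.11 (adjusted p 0.0103) and was called whichever 1 of the 12 libraries was omitted. Ndufa8 (0.54 ± 0.11, adjusted p 0.0164) was lost without 6 h replicate 1 or 2 (adjusted p 0.0501 to 0.0519), Cox5a (0.68 ± 0.15, adjusted p 0.0201) without 6 h replicate 1 or 2 or 24 h replicate 3 or 4 (adjusted p 0.0502 to 0.0628) and Uqcrc1 (0.55 ± 0.12, adjusted p 0.0201) without 6 h replicate 1 or 2 or 24 h replicate 3 (adjusted p 0.0539 to 0.0635). The 12 calls became 1 without 6 h replicate 1, 1 without 6 h replicate 2, and 5, 2 or 5 without 24 h replicate 2, 3 or 4. They were 0 with the epithelial or the muscle sum as a covariate and 0 without 6 h replicates 1 and 3. The mitochondrial ribosome had 6 of 77 higher and 0 lower (median 0.17), that is 7.79% against the 7.41% of all genes. The 6 calls became 0 without 6 h replicate 1 or 2 or 24 h replicate 3, 1 without 24 h replicate 4, 2 without 24 h replicate 1 and 10 without PTU replicate 1, 3 or 4. They were 0 with the epithelial or the muscle sum as a covariate and 0 without 6 h replicates 1 and 3. The calls of Mrpl42 (0.73 ± 0.16), Mrps27 (0.53 ± 0.12), Mrpl34 (0.57 ± 0.15) and Mrps5 (0.33 ± 0.08) (adjusted p 0.0209, 0.0221, 0.0371 and 0.0371) were each lost without 6 h replicate 1 (adjusted p 0.0641 to 0.110), without 6 h replicate 2 (0.0628 to 0.0995) and without 24 h replicate 3 (0.0562 to 0.0999), and Mrpl34 and Mrps5 also without 24 h replicate 1 or 4 and Mrps27 without 6 h replicate 3 or 24 h replicate 4 (0.0504 to 0.0916). Fatty acid oxidation genes had 2 of 26 higher and 0 lower (median 0.10), that is 7.69% against the 7.41% of all genes. The number higher was 1 without any 1 of the 4 6 h libraries or 24 h replicate 2 or 3, and 2 were lower without 24 h replicate 2. The number higher was 0 without 6 h replicates 1 and 3, 0 with the epithelial sum held and 1 with the muscle sum as a covariate. Ucp3, a mitochondrial carrier induced by fatty acids and TH, was progressive, with 549.5, 503, 531 and 409 without TH, 1746, 1284, 1901 and 1614 at 6 h and 2219, 2682, 3499 and 2509 at 24 h (0.74 ± 0.15, adjusted p 0.0157). Acaa2, a thiolase, rose by 0.63 ± 0.17 (adjusted p 0.0388), a call lost without any 1 of the 4 6 h libraries or 24 h replicate 2 or 3 (adjusted p 0.0535 to 0.113).

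Of 16 heat shock genes 7 were higher and 0 lower at 24 h, all late, and the other 9 did not pass (median 0.63, 43.8% called against the 7.41% of all genes). Hspb1, a small heat shock protein, had 838, 644, 1385 and 913 at 6 h and 2018, 2717, 2507 and 1672 at 24 h (1.24 ± 0.21, adjusted p 0.00578). Hsph1 rose by 1.30 ± 0.27 (adjusted p 0.0161) and was lost without 6 h replicate 1 (adjusted p 0.0519), Hsp90aa1 by 0.94 ± 0.21 (adjusted p 0.0194) and lost without 6 h replicate 1 or 2 or 24 h replicate 2 (adjusted p 0.0504 to 0.0622), and Hspe1 by 0.74 ± 0.17 (adjusted p 0.0209) and lost without 6 h replicate 1 or 2 or 24 h replicate 2 or 3 (adjusted p 0.0507 to 0.0645). The 7 calls became 1, 2 or 4 without 6 h replicate 1, 2 or 4 and 2 or 3 without 24 h replicate 2 or 3. They were 1 without 6 h replicates 1 and 3, 1 with the epithelial sum held and 1 with the muscle sum as a covariate. Of 20 genes of the unfolded protein response, 2 were higher and 2 lower (median 0.10, 20% called against the 7.41% of all genes). All 4 are given. Manf, a secreted protein of the endoplasmic reticulum, had 812, 841, 839 and 882 at 6 h and 1282, 1394, 1319 and 1302 at 24 h (0.65 ± 0.08, adjusted p 0.00075). Sdf2l1, of the same compartment, rose late (0.81 ± 0.18, adjusted p 0.0199) and was lost without 6 h replicate 4 or 24 h replicate 2 or 3 (adjusted p 0.0554 to 0.0637). Herpud1, of protein degradation there, was transient and lower at 24 h (-0.48 ± 0.11, adjusted p 0.0257), and was lost without 6 h replicate 1 or 4 or 24 h replicate 1, 3 or 4 (adjusted p 0.0519 to 0.0733). Sel1l, of the same pathway, fell late (-0.25 ± 0.07, adjusted p 0.0465) and was lost without PTU replicate 3, any 1 of the 4 6 h libraries or any 1 of the 4 24 h libraries (adjusted p 0.0534 to 0.109). Fosl2, an AP-1 factor, was 1 of 2 of 21 immediate early genes called, with 343, 348, 522 and 355 at 6 h and 1079, 944, 665 and 1078 at 24 h (1.27 ± 0.17, adjusted p 0.00151). The other, Fosl1, rested on 24 h replicate 2 (413 normalised counts, against 4.82 to 12.2 in the other 3) and could not be tested without it, as its mean then fell under the minimum. Fosl1 (adjusted p 0.048) was also lost without any 1 of the 4 6 h libraries or PTU replicate 2, 3 or 4 (adjusted p 0.0538 to 0.119). The 2 of 21 immediate early genes are 9.52%, against the 7.41% of all genes.

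The reversing genes were on one side of PTU at 6 h and on the other at 24 h. Of the 11, 4 were lower at 6 h and higher at 24 h than PTU, and 7 the reverse. Each was called between the times whichever 1 of the 12 libraries was omitted, with the muscle sum as a covariate, with the epithelial sum held and without 6 h replicates 1 and 3. The double call against PTU was less firm, and 6 of the 11 kept the class in all 12 fits. The number of reversing genes was 18 without PTU replicate 1, 6 or 7 without 6 h replicate 3 or 4, 5 with the epithelial sum held and 3 without 6 h replicates 1 and 3. Slc16a1 (chromosome 3, 104638668 to 104658462), the transporter MCT1 of lactate and ketone bodies, had 1088, 1268, 1345 and 1172 normalised counts without TH, 587, 535, 689 and 696 at 6 h and 2326, 2463, 3868 and 2825 at 24 h. The 3 groups did not overlap. It changed by -0.96 ± 0.15 at 6 h and 1.24 ± 0.15 at 24 h against PTU, and by 2.195 ± 0.16 between the times (SE, adjusted p 5.62e-05). Dtx4 (chromosome 19, 12466338 to 12501454), of the Deltex family of ubiquitin ligases, had 1003, 474, 541 and 277 without TH, 291, 209, 211 and 197 at 6 h and 1918, 1472, 1406 and 1634 at 24 h. Its 6 h and PTU libraries overlapped, and the 24 h libraries were above both (2.83 ± 0.31, adjusted p 0.000311). Adk, adenosine kinase, had 1142, 1330.1, 1092 and 1064, 862, 738, 794 and 923 and 1478, 1741, 1652 and 1567 in the same order of groups (0.96 ± 0.10, adjusted p 0.000199), and Fam78b differed between the times by 1.28 ± 0.14 (adjusted p 0.00038).

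In the other direction, Nr1d2 (chromosome 14, 18204054 to 18239127), which encodes REV-ERB beta, had 299.7, 607, 374 and 729 without TH, 1423, 1283, 1323 and 1499.5 at 6 h and 169, 269, 161 and 212 at 24 h, with no overlap between the groups (-2.77 ± 0.26, adjusted p 0.000129). Slc5a6 (chromosome 5, 31036036 to 31048924), a transporter of biotin and pantothenate, had 475, 435, 418 and 422, 1028, 1032, 1429.8 and 1131 and 259, 208, 379 and 249, again without overlap (-2.08 ± 0.17, adjusted p 8.28e-05). It overlaps Atraid on the opposite strand. Epb41l1, of the membrane skeleton, had 3345, 3892, 4277 and 4274 at 6 h and 1338, 1237, 1764 and 1547 at 24 h, against 2051 to 3166 without TH (-1.42 ± 0.15, adjusted p 0.000231). Sulf2, a sulfatase of the cell surface (-0.96 ± 0.12, adjusted p 0.000588), and Gpr146, a G protein-coupled receptor (-0.70 ± 0.09, adjusted p 0.000642), moved by less. Ncoa4, which delivers ferritin to autophagy, had 2668 to 3162 without TH, 3689 to 4122 at 6 h and 1929 to 2423 at 24 h (-0.84 ± 0.09, adjusted p 0.000352). The eleventh reversing row, the predicted gene Gm6768, lies outside the naming rule and is given because its count was 0.805 to 0.898 of that of Ncoa4 in each of the 12 libraries, so the 2 rows may count the same reads and Ncoa4 is uncertain to that extent.

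**Figure D4:**
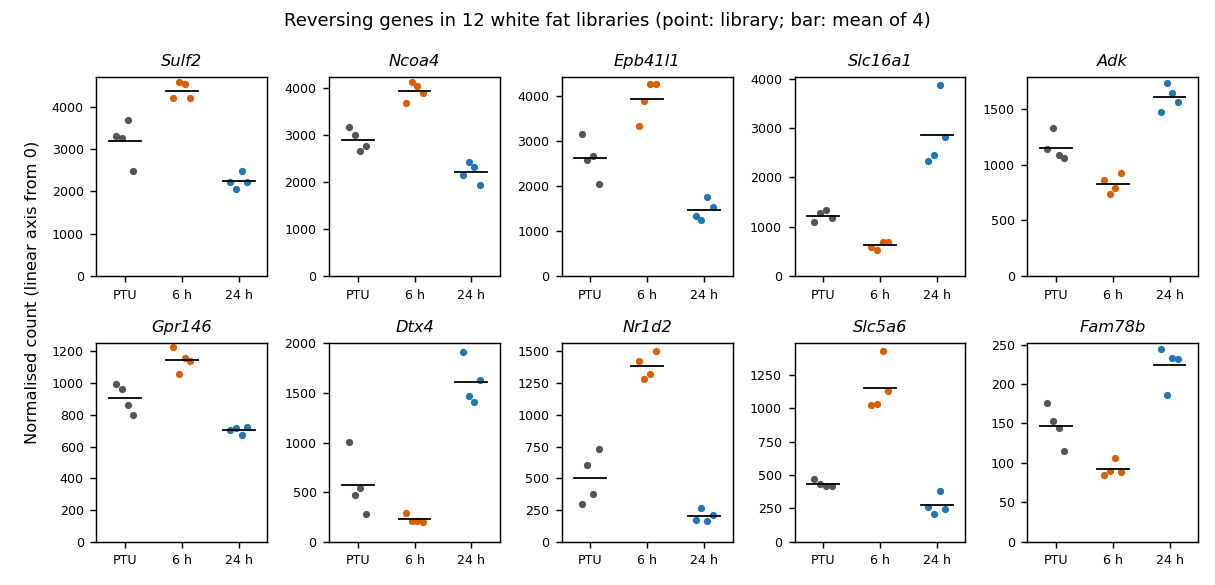
Normalised counts (linear axes from 0) of 10 reversing genes in the PTU, 6 h and 24 h libraries, with each library as a point and the mean of 4 as a bar. Slc16a1, Adk, Dtx4 and Fam78b dip at 6 h and exceed PTU at 24 h, and the other 6 rise at 6 h and fall below PTU at 24 h.

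Progressive genes moved the same way in both steps, 36 upward and 38 downward. Aspg (chromosome 12, 112106679 to 112127559), an asparaginase, had 9.61, 13.2, 20.8 and 18.4 normalised counts without TH, 187, 167, 281 and 352 at 6 h and 1095, 531, 1154 and 1040.3 at 24 h. The groups did not overlap, and 24 h replicate 2 was the lowest of its group (1.95 ± 0.28, adjusted p 0.00235). The same library was the lowest at 24 h for Acot11, an acyl-CoA thioesterase of brown fat (2031, 777, 2390 and 2067 at 24 h, 353 to 663 at 6 h and 39.4 to 71.3 without TH, 1.79 ± 0.32, adjusted p 0.00727). Tlcd2 had 270 to 284 without TH, 338 to 756 at 6 h and 1340.3 to 1963 at 24 h (1.67 ± 0.20, adjusted p 0.000509), and it overlaps the host gene of Mir22 on the same strand. Mup10 rose between the times by 2.12 ± 0.29 (adjusted p 0.00155), but the major urinary proteins are a family of near-identical copies among which reads may be split. Cebpb, a transcription factor early in fat cell formation, rose by 0.88 ± 0.22 (adjusted p 0.031), a call lost without 6 h replicate 2, 3 or 4 or 24 h replicate 1, 3 or 4 (adjusted p 0.0557 to 0.0828).

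In the falling direction, Agpat9 (chromosome 5, 100845713 to 100899102, named Gpat3 in the annotation), a glycerol-3-phosphate acyltransferase at the start of triglyceride synthesis, had 2410.4, 3972, 2493 and 3388 without TH, 908, 1275, 1419 and 1212 at 6 h and 286, 309, 247 and 243 at 24 h, with no overlap (-2.15 ± 0.18, adjusted p 8.77e-05). Scn7a, a sodium channel, had 2179.8 to 3370, 1687 to 1978 and 686 to 854 (-1.28 ± 0.14, adjusted p 0.000257). Smoc1, a secreted protein of the matrix, had 3287 to 5512, 2370 to 2796 and 1094 to 1296 (-1.13 ± 0.15, adjusted p 0.00139). Zfp697 (-1.37 ± 0.19) and Elmo3 (-1.23 ± 0.17) followed (adjusted p 0.00183 and 0.0014).

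Partly returning genes had their larger change at 6 h. Of the 25, 19 were above PTU and 6 below it. Angptl2 (chromosome 2, 33216069 to 33247717), a secreted angiopoietin-like protein, had 1810, 1098, 1226 and 1001 without TH, 6479, 8003, 7199 and 6427 at 6 h and 2640.2, 2855, 2716 and 2936 at 24 h, the 3 groups being separate (-1.33 ± 0.16, adjusted p 0.000633). Ppargc1a, the coactivator PGC-1 alpha of mitochondrial genes, had 61.5, 68.2, 90.2 and 77.5, 583, 602, 687 and 689 and 281, 504, 370.4 and 393 (-0.73 ± 0.16, adjusted p 0.0199), and its call between the times was lost without 6 h replicate 4 or 24 h replicate 3 or 4 (adjusted p 0.0502 to 0.0522). Papss2, which makes the sulfate donor of the cell (-0.86 ± 0.10, adjusted p 0.000387), Slc25a33, a mitochondrial carrier of pyrimidine nucleotides (-0.81 ± 0.17, adjusted p 0.0157), and N4bp2l1 (-0.80 ± 0.14, adjusted p 0.00597) were called whichever 1 of the 12 libraries was omitted. Wdr62 (-0.78 ± 0.17, adjusted p 0.0171) was lost without 24 h replicate 4 (adjusted p 0.0529). Below PTU, Snhg5, a host gene of small nucleolar RNAs, had 416 to 511 without TH, 208 to 235 at 6 h and 284 to 342 at 24 h (0.55 ± 0.10, adjusted p 0.00808). Dhrs3, a retinal reductase (0.74 ± 0.16, adjusted p 0.0161), was lost without 6 h replicate 2 (adjusted p 0.0509), Sema6d (0.60 ± 0.15, adjusted p 0.0286) without 6 h replicate 2, 3 or 4 or 24 h replicate 1, 2 or 4 (adjusted p 0.0555 to 0.0771), Arhgap20 (1.06 ± 0.26, adjusted p 0.0299) without 6 h replicate 1, 3 or 4 or 24 h replicate 1, 2 or 4 (adjusted p 0.0609 to 0.091) and Dapk1 (0.63 ± 0.18, adjusted p 0.0482) without PTU replicate 2 or 3, any 1 of the 4 6 h libraries or any 1 of the 4 24 h libraries (adjusted p 0.0578 to 0.13).

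Of 17 genes listed for TH receptors, transport and direct response, 1 was higher and 4 lower at 24 h than at 6 h (median -0.14, 29.4% called against the 7.41% of all genes). Slc16a10, the TH transporter MCT10, fell late, with 441, 538, 529.7 and 440.2 without TH, 399, 413, 396 and 475 at 6 h and 272, 257, 265 and 225 at 24 h (-0.72 ± 0.11, adjusted p 0.00249). Ncoa2, a coactivator, was lower at 24 h than at 6 h (-0.45 ± 0.09, adjusted p 0.0137), and so was Rxra, a retinoid X receptor (-0.66 ± 0.15, adjusted p 0.0209), which was lost without 24 h replicate 2 or 4 (adjusted p 0.0502 to 0.0598). Klf9, a target gene of the receptors, was partly returning (-0.65 ± 0.17, adjusted p 0.0366) and was lost without 6 h replicate 2, 3 or 4 or 24 h replicate 1, 3 or 4 (adjusted p 0.072 to 0.0987). Hr, a corepressor gene that TH induces, rose further (0.63 ± 0.16, adjusted p 0.0373) and was lost without 6 h replicate 2, 3 or 4 or any 1 of the 4 24 h libraries (adjusted p 0.0559 to 0.0966). The number lower was 2 without 24 h replicate 4, and with the epithelial sum held or without 6 h replicates 1 and 3 it was 1, with 0 higher. The receptor genes Thra and Thrb did not pass between the times (-0.21 ± 0.14 and -0.14 ± 0.14, adjusted p 0.406 and 0.571). Of 19 thermogenesis genes 2 were higher and 1 lower (median 0.28, 15.8% called against the 7.41% of all genes), namely Acot11, Cox7a1 and Ppargc1a, all described above. Hr, Thra, Thrb, Ucp1 and Dio2 are added here after their values were seen. Ucp1, the uncoupling protein of brown fat, had 1641, 2441, 3941 and 3107 at 6 h and 2877, 11616, 12352 and 3321 at 24 h, and Dio2, which activates TH, 348, 302, 496 and 465 and 113, 813, 602 and 70.8. In both, 24 h replicates 2 and 3 were the highest and replicates 1 and 4 the lowest of the group, and neither passed between the times (1.44 ± 0.77 and -0.01 ± 0.58, adjusted p 0.278 and 0.994).

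Glycolysis genes were higher at 24 h than at 6 h in 7 of 27 cases and lower in 1 (median 0.44, 29.6% called against the 7.41% of all genes). Pgk1, phosphoglycerate kinase, had 2454, 2397, 3202 and 2914 at 6 h and 5494, 7051, 6641 and 5298 at 24 h (1.16 ± 0.18, adjusted p 0.00284). Gpi1 (0.74 ± 0.16, adjusted p 0.0179) was lost without 6 h replicate 1 or 2 (adjusted p 0.0563 to 0.0568) and Pkm, pyruvate kinase (0.87 ± 0.19, adjusted p 0.0169), without 6 h replicate 1 or 2 (adjusted p 0.0519 to 0.0537). Pfkp was described above. The number higher was 2 without 6 h replicate 1, 2 without 6 h replicate 2 and 11 without PTU replicate 1, 3 with the muscle sum as a covariate, and 1 without 6 h replicates 1 and 3. In the breakdown of branched-chain amino acids 3 of 21 genes were lower and 0 higher (median -0.24, 14.3% called against the 7.41% of all genes), all late. The number lower was 2 without 6 h replicate 2, 3 or 4 or 24 h replicate 1 or 4, 6 without PTU replicate 1, and 0 without 6 h replicates 1 and 3 or with the epithelial sum held. Mccc2 (-0.54 ± 0.10, adjusted p 0.00661) and Aldh6a1 (-0.57 ± 0.11, adjusted p 0.0119) were called whichever 1 of the 12 libraries was omitted, and Acadsb (-0.43 ± 0.10, adjusted p 0.0238) was lost without 6 h replicate 2, 3 or 4 or 24 h replicate 1 or 4 (adjusted p 0.0525 to 0.0743). Akt2, a kinase of insulin signalling, fell late (-0.70 ± 0.12, adjusted p 0.00712), and with Insr made 2 lower of 22 and 0 higher in its list (median -0.11), that is 9.09% against the 7.41% of all genes. Without 6 h replicates 1 and 3, and with the epithelial sum held, 0 of the 22 passed. The interferon list had 4 of 24 higher and 0 lower (median 0.52, 16.7% called against the 7.41% of all genes), but the count was 1, 0, 2 or 2 without 6 h replicate 1, 2, 3 or 4, 7 without PTU replicate 1, 11 without 24 h replicate 1 and 1 without 24 h replicate 2, 3 or 4. It was 0 with the muscle sum as a covariate. Isg15, a ubiquitin-like protein (1.17 ± 0.25, adjusted p 0.0175), was lost without 6 h replicate 1 or 2 (adjusted p 0.0522 to 0.0547), and its libraries at the 2 times overlapped.

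Keratinocyte genes fell by large amounts between the times. Of 15 tested, 10 were lower and 0 higher at 24 h than at 6 h (median -5.61, 66.7% called against the 7.41% of all genes), 8 of them called at neither time against PTU. Krt14 had 46.1, 1.2, 90.2 and 49.2 normalised counts without TH, 371, 6.44, 1870 and 87.9 at 6 h and 0.965, 0.97, 0 and 2.21 at 24 h (adjusted p 0.015). The 6 h values thus ran from the lowest in replicate 2 to the highest in replicate 3. The number lower was 5 or 4 without 6 h replicate 1 or 3 and 2 without any 1 of the 4 24 h libraries. It was 1 without 6 h replicates 1 and 3. With the epithelial sum held it was 0, but that sum is made from this same list, so the fit is no test of these genes. No skeletal muscle gene passed among 15 tested (edgeR and DESeq2, 0 calls each, and 0 at an unadjusted p under 0.05), although their median log2 difference was 2.38. The plot of gene lists gives the share called in each direction.

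**Figure D5:**
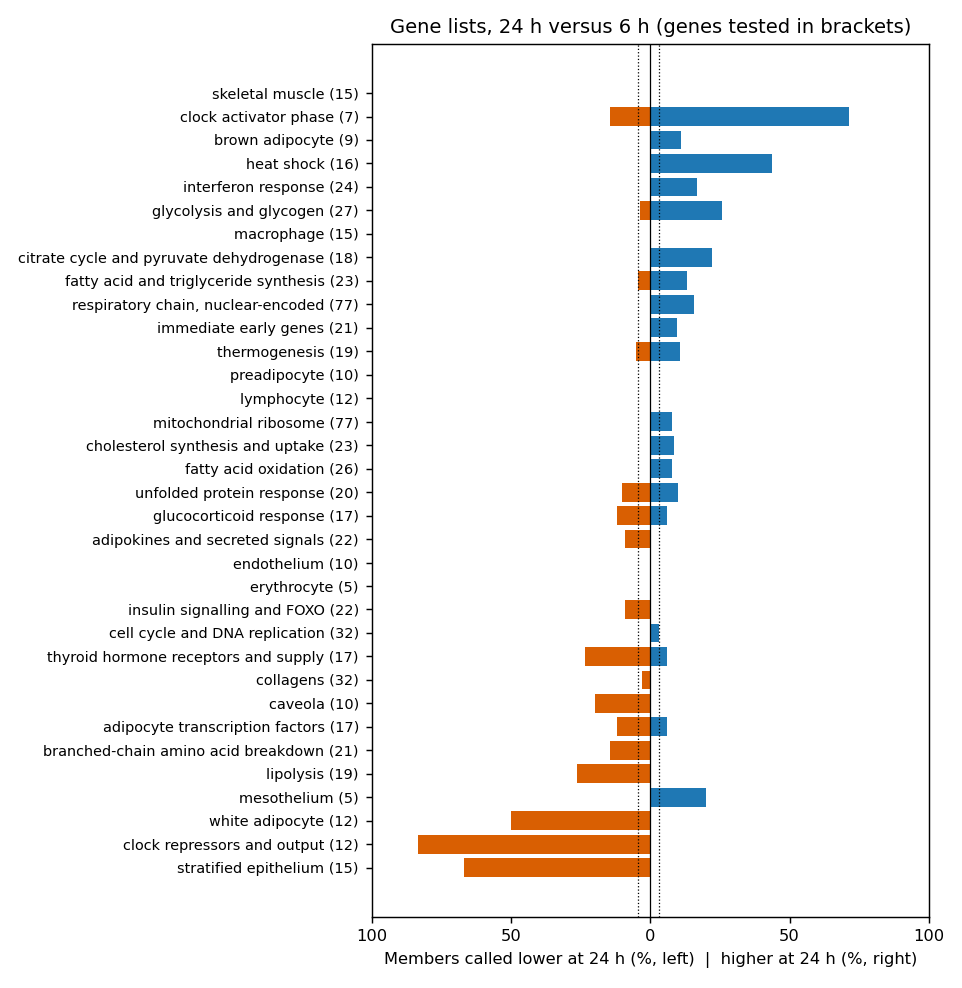
Percent of the tested members of each gene list called higher (right, blue) or lower (left, orange) at 24 h than at 6 h, with lists ordered by their median log2 difference and the number tested in brackets. Dotted lines mark the shares over all genes, 3.07% higher and 4.35% lower, and the clock repressors, epithelial and white adipocyte lists reach farthest to the left.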

How the data were processed

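RNA from white adipose tissue was extracted with Trizol and sequenced on an Illumina NextSeq instrument after library preparation with a SENSE total RNA kit. The authors aligned reads with Bowtie2 2.2.6.2 to the mouse genome mm10, removed alignments of low mapping quality and counted reads per gene with htseq-count, and the deposited counts are raw and carry gene symbols only. The annotation release, the fat depot and the strand setting are not given in the sources used here. Replicates are separate libraries with separate labels. In the main fit, p-values set the difference between groups against the spread between replicates, estimated over all 3 groups. Within each group, libraries differed beyond sampling noise (chi-square per degree of freedom 9.97 to 88.3).

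The 12 WAT libraries were fitted in 1 model with 3 groups (PTU, 6 h, 24 h) by edgeR 4.0.16 in R 4.3.3 (TMM scaling, quasi-likelihood F test, two-sided, Benjamini-Hochberg adjustment over all genes tested, called at an adjusted p under 0.05), after keeping rows with a mean normalised count above 10. The SE of a log2 change is its size divided by the square root of F. The study used DESeq2, which is an alternative here (DESeq2 1.42.0, 99 adjusted p-values not available). Of the rows, 15 carried dates in place of gene symbols (at most 0.0825% of counts) and 126 repeated a symbol, and 129 were in pairs with nearly the same counts (within 2% in every library). The fit was tested on simulated counts with known changes. These were drawn gene by gene with the same spread setting, so they cannot show the effect of other tissue that differs between libraries. The alternatives were DESeq2's size factors and test, no filter, a replicate block, leaving out each library, leaving out copied rows, marker sums as covariates, the 8 libraries of the 2 times alone, a stricter class rule and a minimum fold. Leaving out 6 h replicates 1 and 3 together was added after the data were seen. Libraries with the same replicate number did not deviate together (r -0.466 to 0.383 over 12 pairs), so the numbers were not taken to pair them.

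The gene lists, marker lists and class rules were chosen with earlier results of these data known. Genes named are, by direction and class, the 5 with the largest log2 change among those with separate libraries, a mean of at least 50, no copied row and no predicted-model symbol, all such reversing genes, up to 4 called members of each list with the smallest adjusted p and all clock genes. Some items that this rule names are not reported here. Others, among them Krt14 and Lrrn4, are members that a list's description needed and were chosen after their values were seen. Positions are those of GENCODE M21 (GRCm38), in which 119 of 119 named genes were matched by symbol or synonym, and promoters are those of RefSeq GRCm38.p6. The 10 striatum libraries were not used here.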

Additional observations from a re-analysis of the deposited data

Results flagged for a closer look

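In groups of 4 libraries, the library farthest from the rest was marked where its gap to the nearest other was, as a share of the range of the group, above Dixon's 95% critical value. This held for 20 of 357 groups of the 119 named genes, and chance alone marks about 1 group in 20. Values are normalised counts, with the other 3 libraries of the group after each.

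At 24 h, replicate 2 was marked 4 times. It was the highest for Tnfrsf12a (378, others 57.5 to 78.5) and Fosl1 (413, others 4.82 to 12.2), and the lowest for Col15a1 (839, others 1118 to 1161) and Nr3c1 (1493, others 1926 to 2005). Replicate 1 was lowest for Ifit1 (165, others 276 to 298), replicate 3 highest for Plin1 (15233, others 10861 to 11255) and replicate 4 lowest for Cry1 (227, others 337 to 344).

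At 6 h, replicate 1 was highest for Dtx4 (291, others 197 to 211) and Snhg5 (235, others 208 to 210.2), replicate 2 lowest for Insr (1933, others 2086 to 2112) and Oxtr (61.9, others 72.8 to 74.9), and replicate 3 highest for Nfil3 (93.2, others 46.8 to 52.6) and Fosl2 (522, others 343 to 355).

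Without TH, replicate 4 was highest for Hlf (103, others 52.7 to 56.8), Slc25a33 (145, others 109 to 114) and Isg15 (188, others 152 to 157). Replicate 3 was highest for Acot11 (71.3, others 39.4 to 44.2) and lowest for Idh3a (4441, others 4675 to 4693), replicate 2 highest for Adipoq (95132, others 69711 to 72676) and replicate 1 highest for Hsph1 (825, others 442 to 490.0).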

How the results depend on the processing

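In the order called, higher, lower, transient, late, reversing, progressive and partly returning, the main counts were 1329, 550, 779, 161, 676, 11, 74 and 25. Leaving out 1 library at a time gave 661 to 2038 called, 202 to 796 higher, 425 to 1242 lower, 84 to 219 transient, 377 to 1088 late, 6 to 18 reversing, 30 to 162 progressive and 11 to 38 partly returning. The highest of each of these ranges was without PTU replicate 1. The lowest were without 6 h replicate 2 (called, late, progressive), 6 h replicate 1 (higher), 6 h replicate 3 (transient, reversing), 24 h replicate 1 (lower) and 24 h replicate 4 (partly returning). The numbers of transient genes without 6 h replicate 2, 3 or 4 or 24 h replicate 1 or 4 were 105, 84, 84, 92 and 88.

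DESeq2's test called 2169 genes, 952 higher and 1217 lower, with 291 transient, 19 reversing, 154 progressive and 42 partly returning. The 8 libraries of the 2 times alone gave 2433, 973 higher and 1460 lower. With a replicate block there were 778 calls, 293 higher and 485 lower, with 100 transient, 421 late, 44 progressive and 15 partly returning. The replicate numbers do not pair the libraries by the labels, and 3 of the 12 libraries correlated best with their own number. With the muscle sum as a covariate there were 468 calls, 152 higher and 316 lower, with 106 transient, 251 late, 37 progressive and 12 partly returning. With the epithelial sum there were 140, 37 higher and 103 lower, with 26 transient, 100 late, 5 reversing, 6 progressive and 2 partly returning, and without 6 h replicates 1 and 3 there were 180, 51 higher and 129 lower, with 24 transient, 129 late, 3 reversing, 7 progressive and 3 partly returning. That last fit rests on fewer libraries, and the epithelial sum used as a covariate did not overlap between 6 h and 24 h. The cause of the other differences was not tested. Calls with an absolute log2 change above 1 numbered 340, 176 higher and 164 lower, with 40 transient, 156 late, 6 reversing, 26 progressive and 3 partly returning.

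DESeq2's size factors, no filter, leaving out copied rows and the stricter class rule left each of these counts within 1.5 times the main one. Of the 119 named genes, 74 passed in all 12 fits that left out 1 library, and the call was lost for 22 with the block, 42 with the muscle sum, 74 with the epithelial sum and 70 without 6 h replicates 1 and 3. The log2 change of 4 of the 1329 genes changed sign with the epithelial sum (Perp, Krt17, Cyp2b19 and 4833423E24Rik), none of them called in that fit. With 4 libraries a group, small changes in low genes could not be resolved, and with no vehicle group at either time the effects of time of day and hormone cannot be told apart.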

Other observations

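Few markers of the other cell types of fat passed between the times. Log2 differences were positive for 9 of 10 preadipocyte, 13 of 15 macrophage and 11 of 12 lymphocyte genes (medians 0.25, 0.40 and 0.18). They were positive for 1 of 10 endothelial and 0 of 5 erythrocyte genes (medians -0.05 and -0.08). Of 10 preadipocyte genes 0 passed by edgeR (1 by DESeq2, 1 at an unadjusted p under 0.05), with summed levels of 13462 to 24495 normalised counts at 6 h, 16921 to 24602 at 24 h and 22748 to 29746 without TH. Of 15 macrophage genes 0 passed (1 by DESeq2, 3 unadjusted), with 8729.7 to 16762 at 6 h and 13268 to 17263 at 24 h. Of 12 lymphocyte genes 0 passed by either tool (0 unadjusted), and of 10 endothelial genes 0 passed by either tool (1 unadjusted), with endothelial sums of 11881 to 14627 and 11873 to 15349. Erythrocyte genes summed to 16745 to 29033 at 6 h and 13257 to 36035 at 24 h, and 0 of 5 tested passed by either tool (0 unadjusted).

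Brown adipocyte markers summed to 5189, 6688, 10494 and 8995 at 6 h and 8725, 20564, 24718 and 8794 at 24 h, against 1874 to 4422 without TH. Replicates 2 and 3 at 24 h stood above the other libraries, and replicates 1 and 4 lay within the 6 h range. Of 9 tested, 1 (Cox7a1) passed and 3 did by DESeq2. Mesothelial markers summed to 933 in PTU replicate 1 and to 72.3 to 157 in the other 11 libraries. Of 5 tested, Lrrn4 was higher at 24 h than at 6 h (1.18 ± 0.30, adjusted p 0.0368), a call lost without 6 h replicate 2, 3 or 4 or 24 h replicate 1, 3 or 4 (adjusted p 0.0623 to 0.0964).

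Collagens had 1 of 32 lower (Col15a1) and 0 higher, with a median log2 difference of -0.15. In the cell cycle list 1 of 32, Ccnd1 (cyclin D1), was higher (0.55 ± 0.15, adjusted p 0.0401), and it was lost without PTU replicate 2, any 1 of the 4 6 h libraries or 24 h replicate 1, 3 or 4 (adjusted p 0.0503 to 0.115). The adipokine list had 2 of 22 lower (Adipoq and Angptl2) and 0 higher, and the glucocorticoid list 1 higher (Cdkn1a) and 2 lower (Nr3c1 and Klf9) of 17. The shares called were 3.125% for collagens and cell cycle, 9.09% for adipokines and 17.6% for glucocorticoid genes, against 7.41% of all genes.

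Symbols of predicted genes or clones were 114 of the 382 genes called between the times only, 114 of the 676 late genes, 9 of the 161 transient, 8 of the 74 progressive, 3 of the 25 partly returning and 1 of the 11 reversing genes. The difference between the classes was not tested. Of the 382, 12 kept this class in all 12 fits that left out 1 library.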
